A study of Mus musculus with 8 samples.

Results

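The dipeptidyl peptidase family was examined in alphaTC6 cells, an established mouse line of the pancreatic alpha cell, which makes glucagon. The 8 genes were Dpp3, Dpp4, Dpp6, Dpp7, Dpp8, Dpp9, Dpp10 and Prep, of 55536 genes in the count table. They were chosen by name, with the fall of Dpp3 after Klf4 siRNA in these same libraries already known. Treatment values of these genes are therefore given as a description, and counts of members past a threshold on that contrast are set beside the share of all genes and support nothing. Cells of wild-type genotype, per the labels, received, by lipid-based reverse transfection over 48 h, either pooled siRNAs against Klf4, a zinc finger transcription factor, or a scramble siRNA as control. Poly(A) RNA was sequenced from 4 libraries of each treatment. Scramble replicates 1 and 2 and Klf4 siRNA replicates 1, 2 and 4 were labelled batch 1, and scramble replicates 3 and 4 and Klf4 siRNA replicate 3 batch 2. What set the batches apart was not given in the sources used here. Both treatments used 1 established line, so the libraries show no variation between animals.

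Dipeptidyl peptidases remove a pair of residues from the amino end of a peptide, and most of them prefer proline or alanine as the penultimate residue. Dpp4, a serine peptidase of the cell surface, cuts the incretins GLP-1 and GIP in this way. Dpp8 and Dpp9 are its relatives in the cytosol, Dpp7 works in lysosomes and vesicles, and Prep (prolyl oligopeptidase) cuts after proline inside short peptides. Dpp6 and Dpp10 belong to the same fold but have no peptidase activity and serve as auxiliary subunits of Kv4 potassium channels. Dpp3 stands outside this fold: it is a cytosolic zinc metallopeptidase that degrades enkephalins and angiotensins, and it binds Keap1, the adaptor that marks the transcription factor Nrf2 for degradation.

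KLF factors bind GC-rich and CACCC elements, so the 250 bases before the annotated start are shown for Dpp9 and Dpp10, the most abundant peptidase and the most abundant channel subunit of the family. The sequences are from RefSeq on GRCm38.p6, read on the strand of the gene (minus in both), and capitals mark CACCC or its reverse complement GGGTG. Prep has no entry in the promoter table.
Dpp9 (chr17:56218890-56219139): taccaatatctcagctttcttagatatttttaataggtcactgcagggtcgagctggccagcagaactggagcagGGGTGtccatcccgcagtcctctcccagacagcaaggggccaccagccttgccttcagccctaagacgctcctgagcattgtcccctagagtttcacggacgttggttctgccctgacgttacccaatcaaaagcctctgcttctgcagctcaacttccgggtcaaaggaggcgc
Dpp10 (chr1:124045560-124045809): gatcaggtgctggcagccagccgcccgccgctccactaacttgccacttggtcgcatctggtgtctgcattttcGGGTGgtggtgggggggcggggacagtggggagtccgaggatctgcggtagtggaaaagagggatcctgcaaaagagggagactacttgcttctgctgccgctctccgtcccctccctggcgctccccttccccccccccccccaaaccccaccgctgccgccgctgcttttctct
On either strand, CACCC occurred 1 time in each window, 175 bases before the start in Dpp9 and 176 in Dpp10. GGGNGGG, counted with overlaps, occurred 0 times in Dpp9 and 11 times in Dpp10, and TATAAA occurred in neither. Most of the 11 overlap in a single run of C, with a match at each base from 46 to 39 before the start, so the separate places are fewer. Of 32851 windows of this length, 52% held CACCC, 44.8% held GGGNGGG and 12.4% held TATAAA. These are matches of letters only, and the treatment groups of both genes overlapped. By count alone, CACCC matched 2 times in the window of the first Dpp6 start and 0 times in those of its other 2 starts, 1 time in those of Dpp4 and Dpp8 and 0 times in that of Dpp7. GGGNGGG matched 1 time in each of these windows of Dpp4, Dpp6, Dpp7 and Dpp8.

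Total counts ran from 45954151 to 64185987 per library. Klf4 RNA fell in the knockdown libraries from 41.8 ± 5.67 to 15.6 ± 4.26 CPM (each count per 1e6 counts of the TMM-scaled library; mean ± SD, n = 4), or to 39.8% of control in the fit with batch. The alpha cell markers Gcg, Irx2 and Pcsk2 were present in all 8 libraries, with Gcg at 1065 to 8913 CPM and Irx2 at 238 to 262 CPM. Ins1, Ins2 and Pdx1, which define beta cells, had 0 counts in all 8, and Sst, of delta cells, and Ptprc, of immune cells, had at most 2 and 1 counts. Hhex had 0 counts in 3 libraries, Col3a1 in 7 and Cdh5 in 1, with at most 3, 1 and 4 counts in the others. Some markers of other cell types were above 0 in each library, among them Mafa at 2.70 to 3.76 CPM, Pdgfra, of fibroblasts, at 2.87 to 7.02 CPM, Cd68 at 1.54 to 2.50 CPM, Lyz2 at 0.284 to 0.656 CPM and Iapp at 2 to 19 counts. Gcg differed mostly by batch, at 1065 to 1257 CPM in batch 1 and 7640 to 8913 CPM in batch 2. In the values of Klf4 and Dpp7, Klf4 siRNA replicate 4, labelled batch 1, lay nearer to replicate 3 of batch 2 than to replicates 1 and 2, whereas in Gcg it lay with batch 1. Of the 8 family genes, 7 passed the filter on low counts and Dpp4 did not.

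Dpp3 (ENSMUSG00000063904) lies on the minus strand of chr19:4907229-4928287 (GRCm38), with up to 18 exons, and no other annotated gene overlaps it. Its level in scramble replicates 1 to 4 was 66.15, 67.89, 62.5 and 58.53 CPM. In Klf4 siRNA replicates 1 to 4 it was 41.46, 41.55, 41.6 and 41.51 CPM. Every knockdown library lay below every control library, and the knockdown libraries were within 1 CPM of each other across both batches. The means were 63.8 ± 4.15 and 41.5 ± 0.0572 CPM (SD, n = 4 each), and counting error alone would give an SD of 0.885 CPM in the knockdown group. On the log2 scale the difference was -0.64 (SE 0.036), which is 64.3% of control. By size of fall Dpp3 was the 92nd of 16333 tested genes, and 146 genes had a log2 difference at least as large in either direction. Within batch 1 the log2 difference was -0.69 and within batch 2, which holds 1 knockdown library, it was -0.54.

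**Figure D1:**
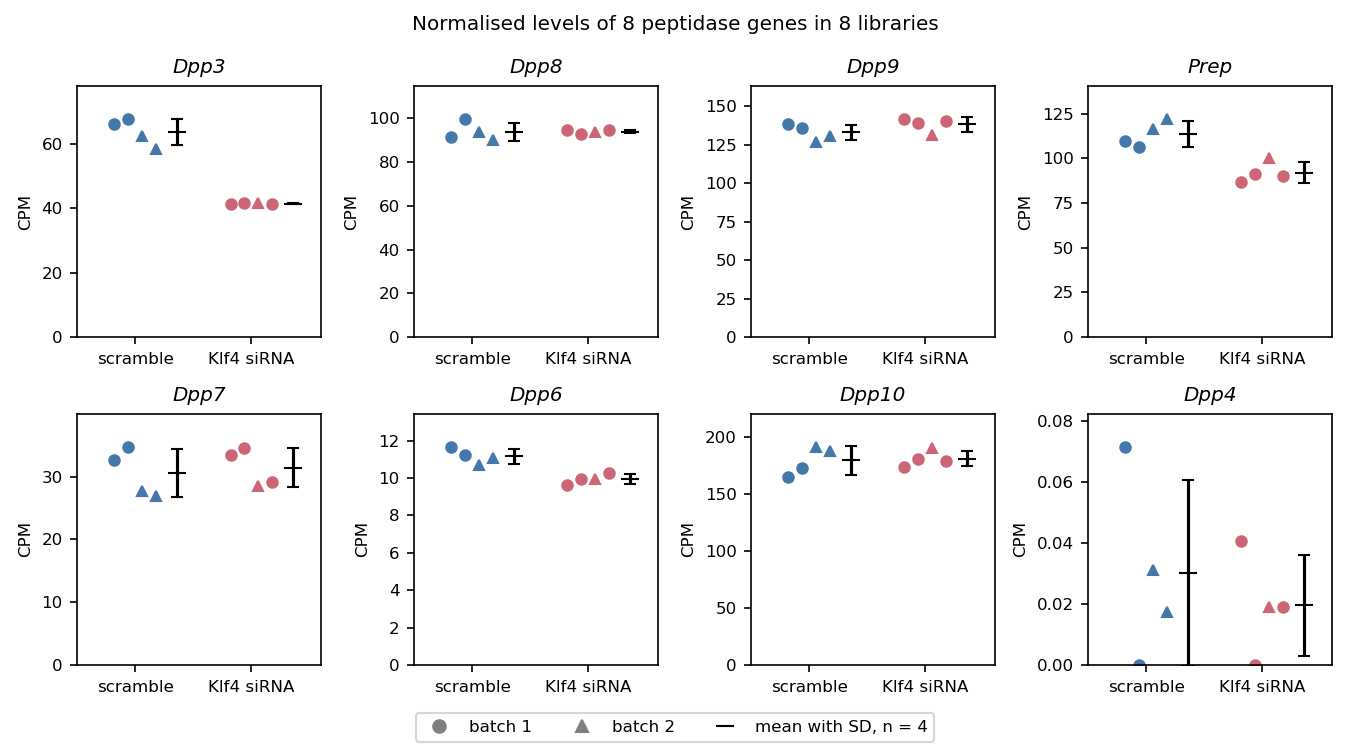
Level (CPM, linear axis from 0) of the 8 peptidase genes in each of 8 libraries; circles are batch 1, triangles batch 2, and the bar is the mean with its SD (n = 4). The Dpp3 knockdown points lie together near 41.5 CPM below all control points, while those of Dpp8, Dpp9, Dpp7 and Dpp10 overlap the controls.

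Dpp8 and Dpp9, the cytosolic serine peptidases that hold back the Nlrp1 inflammasome sensor, showed no such gap. Dpp9 (ENSMUSG00000001229, minus strand, chr17:56186807-56218905) was at 138.4, 136.0, 126.9 and 131.1 CPM in scramble replicates 1 to 4 and at 142.0, 139.3, 131.4 and 140.5 CPM in Klf4 siRNA replicates 1 to 4. The groups overlapped, and the lowest library of each group was from batch 2. Its log2 difference was 0.03 (SE 0.027). Dpp8 (ENSMUSG00000032393, plus strand, chr9:65032414-65082651) ran from 89.94 to 99.74 CPM in control libraries and from 92.91 to 94.77 CPM in knockdown libraries, with means of 93.7 ± 4.30 and 93.9 ± 0.826 CPM (SD, n = 4 each). Its log2 difference was -0.005 (SE 0.032). An antisense annotation, Gm47350, shares 316 exon bases with Dpp8, and whether the counting used strand was not given in the sources used here.

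Prep (ENSMUSG00000019849, plus strand, chr10:45067203-45167198) was the other catalytic member with a gap between the groups. It was at 109.6, 106.3, 116.5 and 122.2 CPM in scramble replicates 1 to 4 and at 86.62, 91.17, 100.1 and 90.17 CPM in Klf4 siRNA replicates 1 to 4. In each treatment the highest values came from batch 2. All knockdown values lay below all control values. The log2 difference was -0.27 (SE 0.030), or 83.2% of control, with -0.27 within batch 1 and -0.25 within batch 2. Dpp7 (ENSMUSG00000026958, minus strand, chr2:25352276-25356359), the lysosomal and vesicular member, was at 32.61, 34.78, 27.72 and 26.87 CPM in scramble replicates 1 to 4 and at 33.5, 34.6, 28.42 and 29.09 CPM in Klf4 siRNA replicates 1 to 4. These values fell into a higher and a lower set that cut across treatment, with a log2 difference between treatments of -0.02 (SE 0.051).

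The channel subunits differed from each other in level. Dpp6 (ENSMUSG00000061576, plus strand, chr5:26817203-27727505), which spans 910.3 kb, was at 11.69, 11.22, 10.71 and 11.07 CPM in scramble replicates 1 to 4 and at 9.604, 9.93, 9.929 and 10.29 CPM in Klf4 siRNA replicates 1 to 4. The groups were apart, though the gap between the lowest control and the highest knockdown library was narrower than the range within either group. The log2 difference was -0.18 (SE 0.058), with -0.20 within batch 1 and -0.13 within batch 2. Dpp10 (ENSMUSG00000036815, minus strand, chr1:123321471-124045559) was at 164.9, 173.0, 191.5 and 187.8 CPM in scramble replicates 1 to 4 and at 173.5, 180.8, 190.1 and 179.2 CPM in Klf4 siRNA replicates 1 to 4. Its groups overlapped, and its log2 difference was 0.05 (SE 0.028). The span of Dpp10 holds 10 other annotations, none of which shares exon bases with it.

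Dpp4 (ENSMUSG00000035000, minus strand, chr2:62330073-62412231), the incretin-cutting member, was near the limit of detection. It had 4, 0, 2 and 1 counts in scramble replicates 1 to 4 and 2, 0, 1 and 1 counts in Klf4 siRNA replicates 1 to 4. The 0 counts allow up to 0.0637 CPM in scramble replicate 2 and 0.0519 CPM in Klf4 siRNA replicate 2 (3 counts, counting error only). No difference between treatments was detectable at this depth.

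By the adjusted p of the fit (under 0.05), 3 of the 7 tested members were called, all lower after Klf4 siRNA (Dpp3, Prep and Dpp6), where 11.7% of all tested genes were called and 6.81% were called lower. The groups of 4 did not overlap for the same 3 members, as for 10.5% of tested genes. The members were selected on this contrast, so nothing is read from these shares. The count rests on Dpp6 for 1 of its 3, since Dpp6 was not called in 13 of 17 alternatives, among them the removal of any 1 library other than Klf4 siRNA replicate 4. Over the 17 alternatives the log2 difference ran from -0.69 to -0.61 for Dpp3 and from -0.31 to -0.25 for Prep. That of Dpp7 ran from -0.06 to 0.05 and that of Dpp8 from -0.03 to 0.04, so neither had a settled sign.

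**Figure D2:**
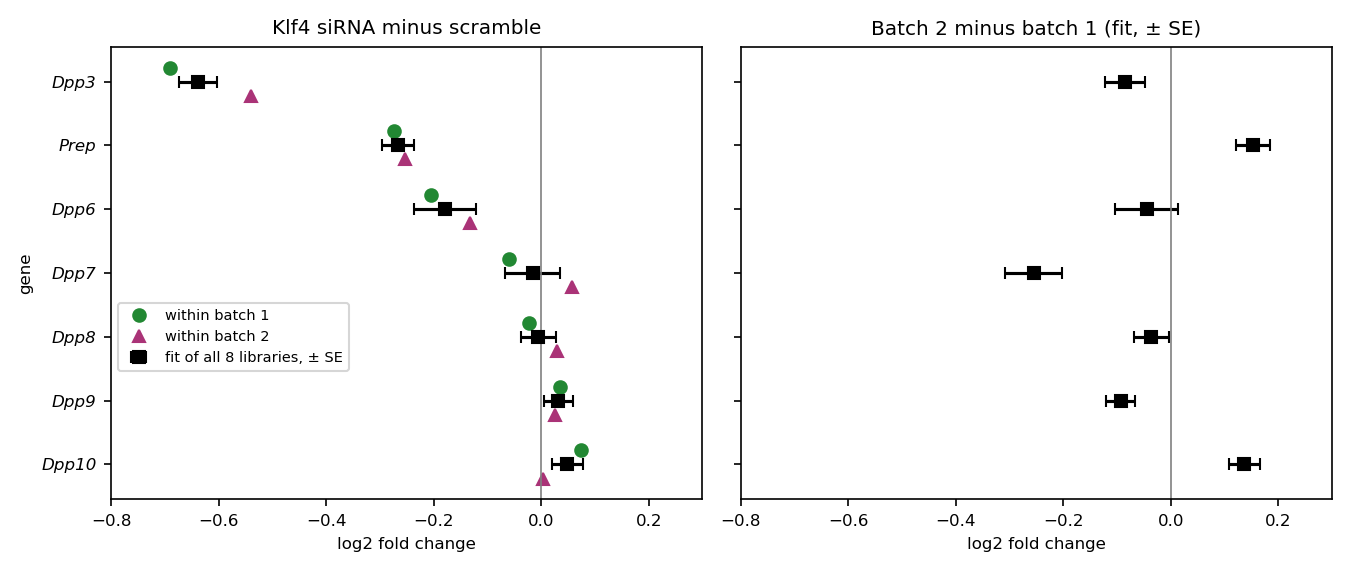
Log2 differences with their SE for the 7 tested members, between treatments (Klf4 siRNA minus scramble) and between batches (batch 2 minus batch 1). Dpp3 lies farthest from 0 between treatments at -0.64, and Dpp7 lies farthest from 0 between batches at -0.26.

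The ratio of Dpp3 to another member in the same library does not depend on library scaling. Per 100 counts of Dpp9, Dpp3 had 47.9 ± 2.35 in control and 30.1 ± 1.13 in knockdown libraries (SD, n = 4 each). Per 100 counts of Dpp8 it had 68.1 ± 3.07 and 44.2 ± 0.424, and per 100 counts of Dpp10 it had 35.8 ± 4.53 and 23.0 ± 0.829. Against these 3 members the groups did not overlap. Per 100 counts of Dpp7 the values were 210.5 ± 14.1 and 133.2 ± 13.2, and per 100 counts of Dpp6 they were 571 ± 32.2 and 418 ± 11.9, again with no overlap. Against Prep, which was also lower after siRNA, the ratio was 56.4 ± 7.06 and 45.3 ± 2.65, and the lowest control and the highest knockdown library met at 47.9. These ratios show unequal differences between members and use the same libraries as the choice of Dpp3.

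**Figure D3:**
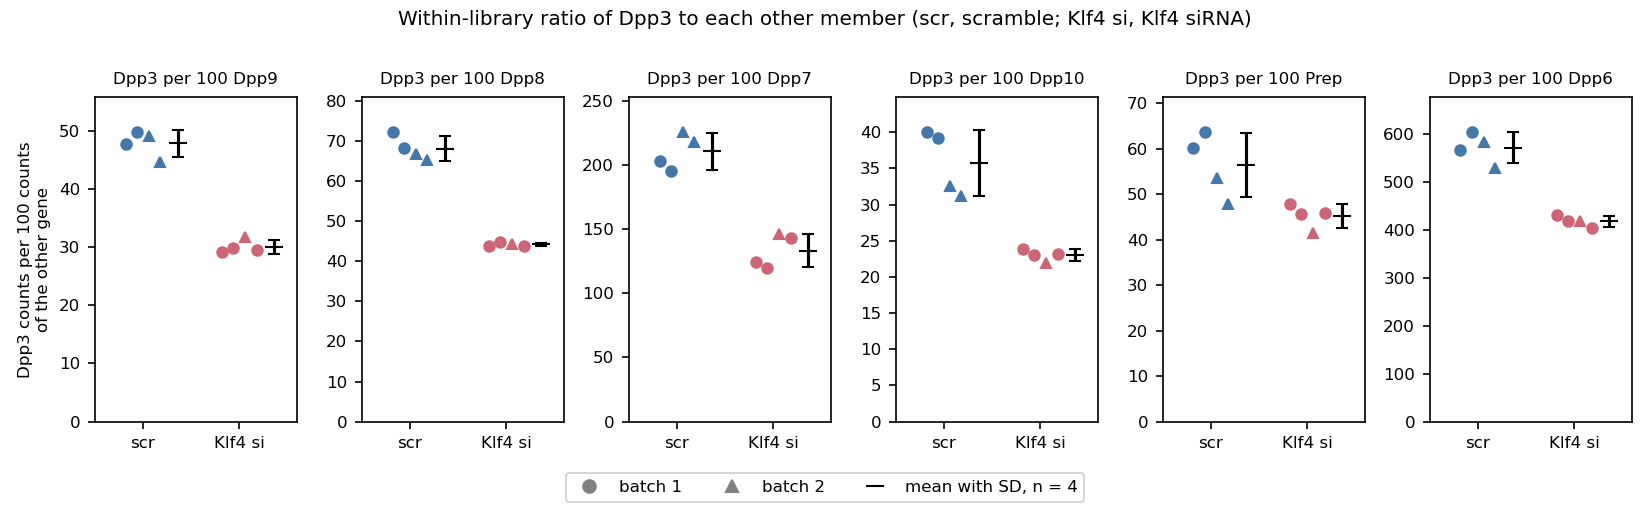
Dpp3 counts per 100 counts of each other tested member, by library, with the group mean and SD (n = 4); axes start at 0. The knockdown libraries lie below the controls in each panel, and in the Prep panel the groups meet at 47.9.

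Per kilobase of annotated exon, the control levels were ordered Dpp9 at 16.9 CPM per kb, Dpp10 at 11.4, Prep at 10.4, Dpp7 at 9.14, Dpp3 at 8.23, Dpp8 at 6.84, Dpp6 at 0.905 and Dpp4 at 0.00475. Dpp3 thus stood among the middle members, and in knockdown libraries it was at 5.36 CPM per kb. Dpp9 was above 79.4% of tested genes, Dpp3 above 63.9% and Dpp6 above 27.1%. The order depends on the length used: per kilobase of the longest transcript, Dpp8 (17.0 CPM per kb) and Dpp3 (14.2) came next after Dpp9 (24.8).

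Batch is a contrast that the choice of members did not use. With edgeR's quasi-likelihood test and Benjamini-Hochberg adjustment over all genes, 4 of 7 members differed between batches, where 32.7% of all tested genes did. Prep and Dpp10 were higher in batch 2 (16.8% of genes were), and Dpp7 and Dpp9 were lower (15.9% of genes were). That background split depends on the scaling, with 2747 genes higher and 2596 lower under TMM and 2111 higher and 3316 lower under library size alone. Prep was higher by 0.15 on the log2 scale (SE 0.031, adjusted p = 0.000647) and Dpp10 by 0.14 (SE 0.029, adjusted p = 0.000966). Dpp7 was lower, at -0.26 (SE 0.053, adjusted p = 0.00117). These 3 calls held under each of 15 alternatives. The median batch difference was 0.07 over the 999 tested genes of chromosome 1, where Dpp10 lies, and its part in the value of Dpp10 was not tested. It was 0.005 on chromosome 10, that of Prep, and 0.001 on chromosome 2, that of Dpp7. Dpp9 was lower, at -0.09 (SE 0.027, adjusted p = 0.013), but its adjusted p was 0.0781 in scramble libraries alone, 0.0536 without scramble replicate 1, 0.0527 without scramble replicate 3 and 0.106 without Klf4 siRNA replicate 3.

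Dpp3 differed between batches by -0.09 (SE 0.037, adjusted p = 0.0832), which did not pass. Its difference was -0.15 in scramble libraries alone (adjusted p = 0.0191) and -0.15 without Klf4 siRNA replicate 3 (adjusted p = 0.0233), and it also passed without Klf4 siRNA replicate 4 (adjusted p = 0.0461) and with library size alone (adjusted p = 0.0399). Without Klf4 siRNA replicate 3, batch 2 holds scramble libraries only, so that setting nearly repeats the contrast of scramble libraries alone. Dpp3 was not called in the other 11 of 15 alternatives, and was -0.05 without scramble replicate 4 (adjusted p = 0.36) and -0.06 without scramble replicate 2 (adjusted p = 0.307). The median batch difference of the 547 tested genes of chromosome 19, where Dpp3 lies, was -0.12, and its part in the batch value of Dpp3 was not tested. Dpp6 and Dpp8 did not pass (adjusted p = 0.619 and 0.451).

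Whether the treatment difference itself varied with batch was tested as an interaction. For Dpp3 it was 0.15 on the log2 scale, a smaller difference in batch 2, with an edgeR adjusted p = 0.999 and an unadjusted value of 0.0458. The other 6 tested members had unadjusted values of 0.246 to 0.884 in the same edgeR test. No gene of 16333 (0%) passed by this test, by DESeq2 or by limma-voom, and 540 had an unadjusted p under 0.05. Batch 2 holds 1 knockdown library, so the interaction rests on that library.

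Of the 6 nearest expressed neighbours of Dpp3 on chromosome 19, Zdhhc24, a palmitoyltransferase gene 21.8 kb away, was lower after Klf4 siRNA, by -0.27 on the log2 scale (SE 0.052, edgeR adjusted p = 0.00132). Its groups overlapped, at 25.8 ± 3.20 and 22.3 ± 2.26 CPM (SD, n = 4 each). It also differed between batches by -0.265 (edgeR adjusted p = 0.000695), and its call was not followed under the alternatives. Bbs1, 0.6 kb from the 3′ end of Dpp3, differed by -0.10 (SE 0.052, edgeR adjusted p = 0.274) and Peli3, 1.4 kb from its start, by -0.17 (SE 0.059, edgeR adjusted p = 0.0804). Ctsf, Mrpl11 and Slc29a2 had log2 differences of -0.03, 0.06 and 0.09 and did not pass. None of the 6 had a log2 difference as large as that of Dpp3, and the median of the tested genes of chromosome 19 was 0.004. Dpp3 was chosen with its fall known, and only 146 of 16333 tested genes reached a difference of that size. The comparison with its neighbours could therefore hardly come out otherwise, and nothing is read from it.

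**Figure D4:**
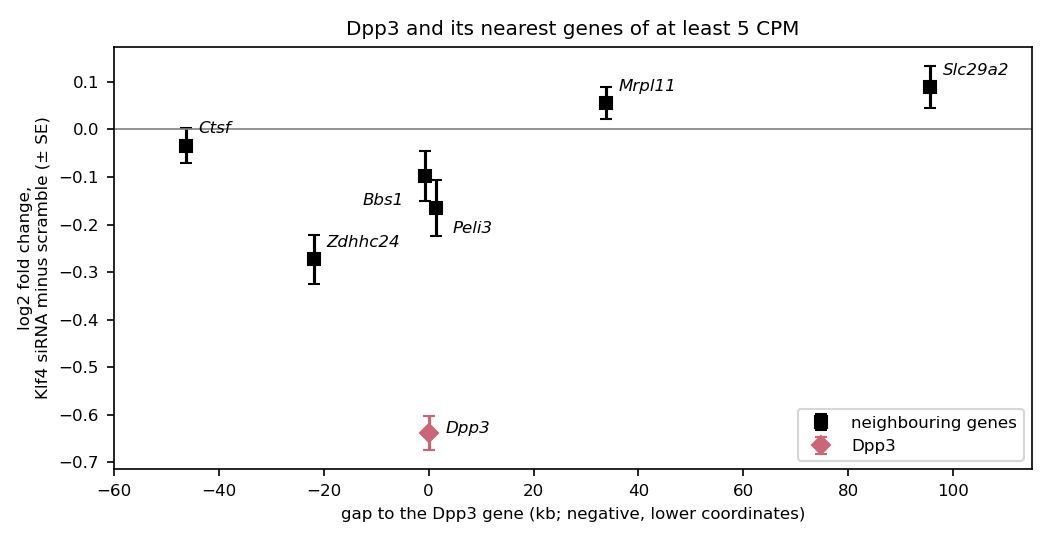
Log2 difference between treatments with SE for Dpp3 and its 6 nearest expressed neighbours against distance from Dpp3 (kb). Dpp3 lies at -0.64 and the neighbours lie between -0.27 and 0.09.

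The genes whose levels followed Dpp3 most closely were found by Pearson's r of log2 CPM over the 8 libraries, after each batch mean was subtracted, among 10388 genes with a mean of at least 5 CPM. They were Ppp4r1 (r = 0.9991), a regulatory subunit of protein phosphatase 4, Slc35g1 (0.9977), Smim14 (0.9969), Tmem123 (0.9966) and Slain2 (0.9959), which encodes a microtubule-associated protein. Their treatment log2 differences ran from -1.08 for Slc35g1 to -0.25 for Slain2. All libraries share the treatment split, and 335 genes had an r of at least 0.95. Within the family, Prep had an r of 0.959 with Dpp3, Dpp6 of 0.921, Dpp7 of 0.171, Dpp8 of 0.148, Dpp10 of -0.64 and Dpp9 of -0.768. Ranked by Spearman's rho instead, 1 of the 5 genes stayed among the closest, with 11 genes tied or higher at the fifth place.

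Genes of related function were listed by role: 82 in all, of which 81 were in the table under that symbol and 53 could be tested. After Klf4 siRNA 8 were higher and 3 lower (20.8%, against 11.7% of all tested genes), with a median log2 difference of -0.002 beside 0 for all genes. Between batches 12 were higher and 12 lower in batch 2 (45.3%, against 32.7%). Without Klf4 siRNA replicate 3 these were 12 higher and 5 lower, and in scramble libraries alone 13 higher and 8 lower. Rnpep, Sqstm1 and Bach1 kept their treatment call under each of 17 alternatives. The other 8 lost it under at least 1.

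Of 8 tested dipeptidyl, tripeptidyl and prolyl peptidases, 2 were higher after Klf4 siRNA and 0 lower (25%, against 11.7% of all tested genes). No list was tested as a set. The lysosomal tripeptidyl peptidase Tpp1 rose by 0.12 on the log2 scale (SE 0.026, edgeR adjusted p = 0.0052) and Prepl, a relative of Prep, by 0.09 (SE 0.028, edgeR adjusted p = 0.0318). Both changes were opposite in sign to those of Dpp3 and Prep. The call of Tpp1 was lost in batch 1 alone (adjusted p = 0.0608), without scramble replicate 2 (0.0504) and without Klf4 siRNA replicate 3 (0.0549), and that of Prepl when scramble replicate 1 (0.222), scramble replicate 2 (0.128) or, of the knockdown libraries, replicate 2 (0.0691) was left out. Prepl also lost it with no batch term (0.432), with the replicate number as a block (0.141), with library size alone (0.0819) and with no filter (0.0632). Between batches, Prcp, the closest relative of Dpp7, was higher in batch 2 by 1.10 (SE 0.076, edgeR adjusted p = 3.87e-10), opposite in sign to Dpp7. It ran from 3.614 to 4.611 CPM in batch 1 and from 8.695 to 9.826 CPM in batch 2. Tpp2 was higher in batch 2 (0.12, edgeR adjusted p = 0.00101) and Xpnpep1 lower (-0.13, edgeR adjusted p = 0.00221).

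Of 19 tested aminopeptidases and oligopeptidases, 3 were higher after Klf4 siRNA and 1 lower (21.1%, against 11.7% of all tested genes). Rnpep, aminopeptidase B, fell from 26.4 ± 0.911 to 22.5 ± 0.927 CPM (SD, n = 4 each), by -0.22 on the log2 scale (edgeR adjusted p = 0.00229). Blmh, the cysteine peptidase bleomycin hydrolase, rose from 21.6 ± 1.53 to 25.8 ± 1.28 CPM, by 0.22 (edgeR adjusted p = 0.00274). In both the groups did not overlap, and the call of Blmh was lost only with no batch term (adjusted p = 0.0637). Npepl1 rose by 0.12 (edgeR adjusted p = 0.0181), a call lost with no batch term (0.139) and without scramble replicate 1 (0.181) or 2 (0.0728). Ide, which degrades insulin and glucagon, rose by 0.09 (edgeR adjusted p = 0.0263), a call lost without scramble replicate 1 (0.106) or 2 (0.152) or Klf4 siRNA replicate 2 (0.0578) or 3 (0.1). The call of Ide was also lost with no batch term (0.298), with the replicate number as a block (0.0949), in batch 1 alone (0.0909), with library size alone (0.0763) and with no filter (0.0775). Between batches Erap1 (0.39, edgeR adjusted p = 5.25e-06) and Mme, neprilysin (0.22, edgeR adjusted p = 3.98e-05), were higher in batch 2, and Ece1 (-0.26, edgeR adjusted p = 2.01e-05) was lower.

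In the Keap1 and Nrf2 list, all 16 genes were tested, 3 were higher after Klf4 siRNA and 1 lower (25%, against 11.7% of all tested genes). Whether the list responds as a set was not tested. Sqstm1, the autophagy receptor that binds Keap1, rose from 311 ± 7.85 to 364 ± 8.44 CPM (SD, n = 4 each), by 0.22 on the log2 scale (edgeR adjusted p = 2.87e-05). Bach1, a repressor at Nrf2 target sites, rose from 55.9 ± 2.95 to 65.5 ± 3.44 CPM, by 0.20 (edgeR adjusted p = 0.000431). The cystine transporter Slc7a11 rose by 0.35 (edgeR adjusted p = 0.00228), a call lost with no batch term (0.249) and with the replicate number as a block (0.0803). Keap1 itself fell from 116 ± 4.44 to 106 ± 1.69 CPM, by -0.11 (edgeR adjusted p = 0.0155), a call lost with no batch term (0.0968), with the replicate number as a block (0.0589), in batch 1 alone (0.135), without scramble replicate 1 (0.101) and without Klf4 siRNA replicate 3 (0.172). The other 12 genes of this list did not pass. Cul3, the ligase scaffold that Keap1 recruits, was higher in batch 2 by 0.22 (edgeR adjusted p = 2.61e-05), as were Srxn1 by 0.17 (edgeR adjusted p = 0.00046) and Rbx1 by 0.11 (edgeR adjusted p = 0.0062).

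**Figure D5:**
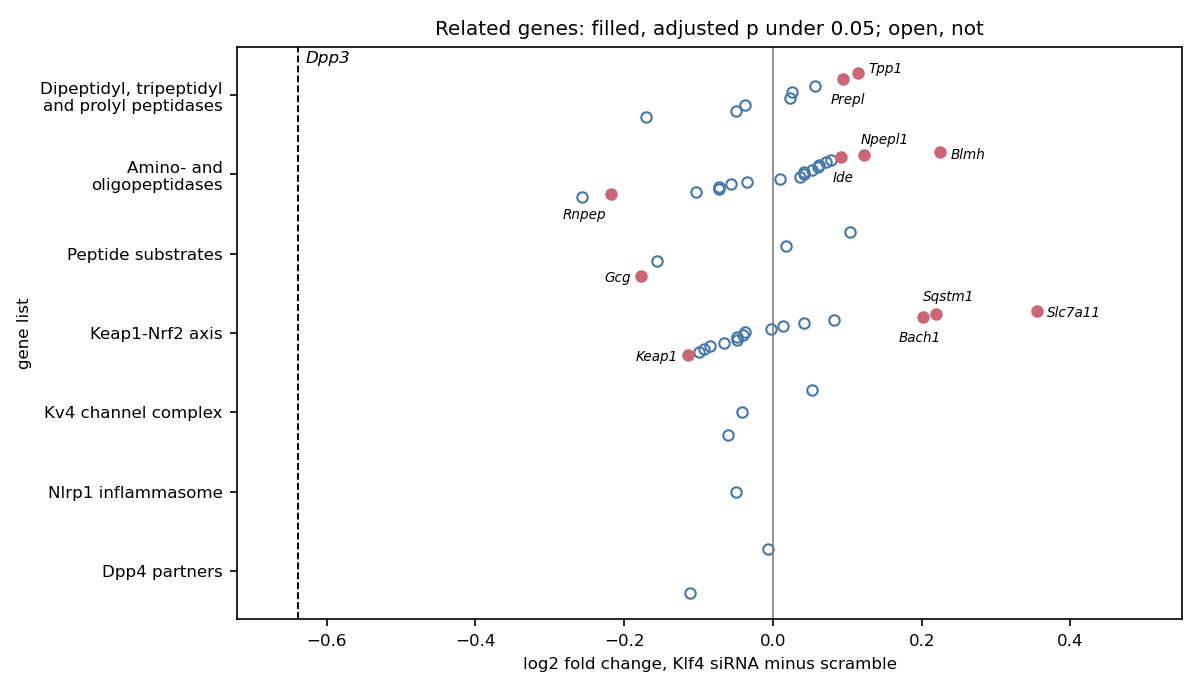
Log2 difference between treatments of the 53 tested related genes by list; filled points have an adjusted p under 0.05, open points do not, and the dashed line is Dpp3. Dpp3 at -0.64 lies farther below 0 than the related genes, but it was chosen with its fall known, so nothing is read from this.

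Of 15 peptide ligands known as substrates, 4 could be tested. Gcg, whose precursor yields glucagon and GLP-1, differed by -0.18 (SE 0.041, edgeR adjusted p = 0.00954) between treatments and by 2.80 between batches (edgeR adjusted p = 2.17e-17). Its treatment call was lost without the batch term (adjusted p = 0.756), with the replicate number as a block (0.552), in batch 1 alone (0.143), without scramble replicate 1 (0.0523) and without Klf4 siRNA replicate 3 (0.0931). The difference itself was -0.88 with no batch term and -0.82 with the block, neither of which has a batch term. Adcyap1 was higher in batch 2 by 0.65 (edgeR adjusted p = 0.00705) and Agt, the angiotensin precursor, lower, at -0.46 (edgeR adjusted p = 0.00154). Neither passed between treatments. In the Kv4 list 0 of 3 tested genes passed between treatments, and Kcnip4, a cytoplasmic subunit of the same channels, was higher in batch 2 by 0.42 (edgeR adjusted p = 4.89e-05), while Kcnip3 was lower, at -0.11 (edgeR adjusted p = 0.0328). In the Nlrp1 inflammasome list Gsdmd alone was tested, at a mean of 0.345 and 0.343 CPM in control and knockdown libraries, and it did not pass. The sensor itself was near or below detection, with Nlrp1a at 0 CPM in both groups and Nlrp1b at 0.0655 and 0.0558 CPM. Of 2 tested Dpp4 partners, neither passed between treatments, and Igf2r was lower in batch 2, at -0.14 (edgeR adjusted p = 0.00159).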

How the data were processed

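The authors deposited raw counts, 1 column per library and whole numbers throughout. Reads were trimmed with cutadapt, per the name of the deposited table. FastQC, STAR, featureCounts, DESeq2 and mm10 are listed, with no role or order, per the submitters' processing notes. The strand setting was not given in the sources used here. One protocol text names isolated islets, while each sample is labelled as the cell line. All 55536 identifiers matched GENCODE M21 (GRCm38), and 0 columns were left unmapped.

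Genes were kept with filterByExpr (16333) and scaled by TMM (factors 0.964 to 1.02). Batch and treatment were fitted by robust quasi-likelihood (edgeR 4.0.16, R 4.3.3, 5 residual degrees of freedom), with two-sided p-values adjusted by Benjamini-Hochberg over all tested genes and a threshold of 0.05. The interaction had a fit of its own. The treatment fit was also run on counts simulated from its own estimates, with planted differences larger than most of those reported here. That run says nothing about the small differences, and its outcome is not reported here. Alternatives used limma 3.58.1 and DESeq2 1.42.0, other scalings and filters, fewer terms, and each library left out. Within-batch values are differences of mean log2 CPM (prior count 2). The closest pair of libraries still differed by a chi-square of 10.2 per degree of freedom. The design text speaks of biological replicates without naming cultures, so p-values measure the spread between these libraries. Without molecular identifiers, counting intervals cover counting error only.

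The members, lists and tests were chosen with earlier results of these data known. Every member and Klf4 were named, then from each related list up to 4 genes for treatment and up to 3 for batch with the smallest adjusted p past the threshold, the 5 genes most like Dpp3, and its 3 nearest neighbours with at least 5 CPM on each side. Some items are not reported here.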

Additional observations from a re-analysis of the deposited data

How the results depend on the processing

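Of 529 values recomputed under alternatives, 463 kept their side of the threshold or, for counts and for values with no test, moved little (counts by less than 1.5 times, values by less than the spread between replicates). No value past the threshold changed sign. The treatment differences of Dpp7 and Dpp8, near 0, changed sign in 4 and 5 alternatives. The number of genes called between treatments, 1909, was 409 with no batch term, 1232 in batch 1 alone and 1220 with a replicate block, of which 1118 were among the 1909. Leaving out 1 library gave 934 to 2021, with 934 without scramble replicate 1, 1012 without scramble replicate 2 and 1232 without Klf4 siRNA replicate 3. Without Klf4 siRNA replicate 3, batch 2 holds no knockdown library, so for treatment that setting nearly repeats batch 1 alone. With the replicate block Dpp3 was at -0.62 and 2 of 7 members were called, the call of Dpp6 being lost. The numbers do not pair the libraries: deviations of same-numbered libraries correlated at 0.492, 0.416, 0.72 and -0.34, and at -0.001, -0.04, -0.302 and 0.116 once batch means were removed, and number 4 lies in different batches. The treatment difference of Dpp3 was -0.69 in batch 1 alone and -0.69 to -0.61 with 1 library left out. Related genes called between treatments, 11, were 4 with no batch term, 7 in batch 1 alone and 6 to 14 with 1 library left out (6 without scramble replicate 1, 7 without scramble replicate 2 and 7 without Klf4 siRNA replicate 3). The interaction, with 0 genes, gave 17 with no filter and 0 to 13 with 1 library left out, 13 being without scramble replicate 3, and it could not be fitted without Klf4 siRNA replicate 3. Apart from these settings the cause of each shift was not tested. Depth limits Dpp4, with at most 4 counts, and Dpp6, whose SDs of 0.409 and 0.282 CPM in control and knockdown libraries are no larger than the 0.448 and 0.433 CPM that counting error alone gives.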

Other observations

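Penk, the precursor of the enkephalins that Dpp3 degrades, did not pass the filter on low counts and was not in the main fit. It was at 29.96 and 33.47 CPM in scramble replicates 3 and 4 and at 30.72 CPM in Klf4 siRNA replicate 3, the libraries of batch 2. In the 5 libraries of batch 1 it had 0 to 9 counts, which is at most 0.156 CPM. The presence of Penk RNA thus followed the batch label and not the treatment, in the same direction as Gcg. It was chosen for mention after its values were seen, and its cause was not tested.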
